A study of Danio rerio with 6 samples.

Results

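Solute carriers are membrane proteins that move amino acids, sugars, ions, metals, nucleotides, lipids and vitamins across cell and organelle membranes, most of them by facilitated diffusion, exchange or cotransport down an ion gradient. They are numbered by family, and members of a family usually share a substrate class. The slc25 family lies mainly in the inner mitochondrial membrane and is described apart from the others. In the early zebrafish embryo, nutrients come from the yolk, and carriers take part in moving them to the tissues, in kidney tubules, in uptake of neurotransmitters and in the supply of iron to blood cells.

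The transporters described here are the genes on an Affymetrix zebrafish array whose current symbol begins with slc and a family number. The anion exchanger slc4a1a and the amino acid transport genes slc3a2b, slc7a3a and slc38a2 were left out of this set. The rule used gene symbols and no measured value, and it found 154 of 15617 probe sets, which stand for 133 of 8793 named genes in 39 families. Of these, 29 probe sets for 25 genes belong to slc25. The rule also takes in slc7a6os and slc4a1ap, which carry the name of a neighbouring or partner gene and are not carriers themselves.

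Whole embryos of the TL strain of Danio rerio were used, with 2 arrays of embryos injected with the Spt5 morpholino and collected at 21 hours post-fertilization (hpf), 2 of embryos injected with a standard control morpholino at 21 hpf, 1 of untreated embryos at 21 hpf and 1 of untreated embryos at 5 hpf. Spt5, with Spt4, forms the factor DSIF, which acts on RNA polymerase II in pausing and elongation. Each morpholino, a synthetic antisense oligonucleotide, carried carboxyfluorescein and was given at the first cleavages at about 2.5 pmol an embryo, so that injection and dye are shared by both morpholino groups and are absent from the untreated ones. The labels do not give the number of embryos in a sample, nor whether replicates were separate clutches. A p-value here reflects the scatter of these arrays alone, part or all of which may be technical. The Spt5 morpholino, the agent that sets the compared groups apart, has the 25 bases below, given 5′ to 3′.
Spt5 morpholino: gtttctctacagtctgtcgctcctg

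The sources used here do not give its position on supt5h, the gene of Spt5. In quantile-normalized log2 intensity, supt5h itself gave 7.72 and 7.42 with the Spt5 morpholino, against 7.61 and 7.43 in the controls. The groups overlapped, with a difference of 0.05 ± 0.14 (log2, SE, n = 2 and 2; limma adjusted p = 0.804), and this signal does not check the knockdown. The median deposited intensity of an array was 26.8 and 36.1 for Spt5 morpholino embryos, 32.4 and 43.8 for control morpholino embryos, and 40.1 (21 hpf) and 18.1 (5 hpf) for untreated embryos. The ratio of 3' to 5' signal of GAPDH, a sign of RNA quality, was 1.39 and 1.42 in Spt5 morpholino embryos, 1.70 and 1.76 in controls, and 1.24 (21 hpf) and 0.952 (5 hpf) without injection. The ratio of actin was 6.94 and 6.99 in Spt5 morpholino embryos, 9.91 and 9.61 in controls, and 7.59 (21 hpf) and 1.96 (5 hpf) without injection. Their part in the differences below was not tested.

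An intensity of 32 (log2 of 5), taken here as the level below which a probe set is dim, was reached on at least 1 array by 111 of the 154 slc probe sets, on all 6 arrays by 37, and on none by 43. Per array it was reached by 74 and 87 slc probe sets of Spt5 morpholino embryos, 73 and 90 of control morpholino embryos, and 92 (21 hpf) and 64 (5 hpf) of untreated embryos. Of the 133 genes, 76 were bright enough to be tested between the morpholinos, for which 2 or more of the 4 arrays had to reach a normalized log2 of 5. Of the 57 others, 54 stayed below log2 5 on all 4 morpholino arrays, and 17 of the 57 reached it in untreated embryos at 5 hpf. The untested genes included 14 of 22 in the inorganic ion group and 8 of 11 in the sugar group. They also included 8 of 25 mitochondrial carriers, 3 of 4 vesicular carriers and 1 of 14 metal carriers. Groups follow family numbers, so the inorganic ion group holds slc4a1ap, which is not a carrier, and the sugar group holds the vitamin carrier slc5a6b. Because a gene could pass the filter through 1 group alone, the tested genes do not stand for all 133.

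The first comparison, Spt5 morpholino against control morpholino at 21 hpf, was made by the study to find the genes that respond to Spt5. More of the tested transporter genes were higher than lower in Spt5 morpholino embryos. The monocarboxylate carrier slc16a3b had the largest fitted rise. The glutamate carrier slc1a3a, the iron exporter slc40a1 and the kidney salt cotransporter slc12a3 were among those that fell. Of the 76 tested slc genes, 25 (32.9%) rose and 14 (18.4%) fell at a limma adjusted p of 0.05, against 22.6% and 24.6% of the 5687 named genes tested. In all, 51.3% of slc genes and 47.2% of named genes were called. The share of slc genes called is close to that of all genes. The median difference was 0.14 for slc genes and 0.00 for named genes (log2, Spt5 minus control). By the fitted difference, 9 called slc genes were at least 2-fold higher and 3 at least 2-fold lower, against 4.29% and 7.14% of named genes. For 4 of the 9 (slc9a7, slc22a2, slc25a10b and slc25a44b) and for slc12a3 among the 3, every array of one group lay below log2 5. These genes passed the filter through the group where they were higher, and the lower limit of their fold is under 2. Over probe sets rather than genes, 30 of 86 slc probe sets rose and 14 fell, against 24.3% and 23% of all 8457 tested probe sets (47.3% called). Of 10 slc genes with more than 1 tested probe set, none had calls in both directions.

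The balance of rises and falls depended on how the arrays were scaled. The median of all probe sets was 0.04 after quantile normalization, -0.21 on the values as deposited and -0.34 after centring each array on its bacterial spike-in probe sets. That of the slc probe sets moved with it and lay above it each time, at 0.21, -0.03 and -0.16. The called slc genes numbered 25 higher and 14 lower after quantile normalization, 8 and 9 as deposited, and 13 and 24 after spike-in centring. The share of all genes in each direction under the other scalings is not given, so these counts do not set the transporters apart. The 25 risen genes were above 0 under each of the 3 scalings, though after spike-in centring slc3a2a was at 0.00 when rounded and slc25a39 at 0.02. The 14 fallen genes were below 0, apart from slc12a3, which was not tested as deposited. Both other scalings moved the differences down nearly together, so a fall could hardly turn. The kept signs are therefore no check of the calls. All rises and falls below are relative to the quantile-normalized distribution.

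**Figure D1:**
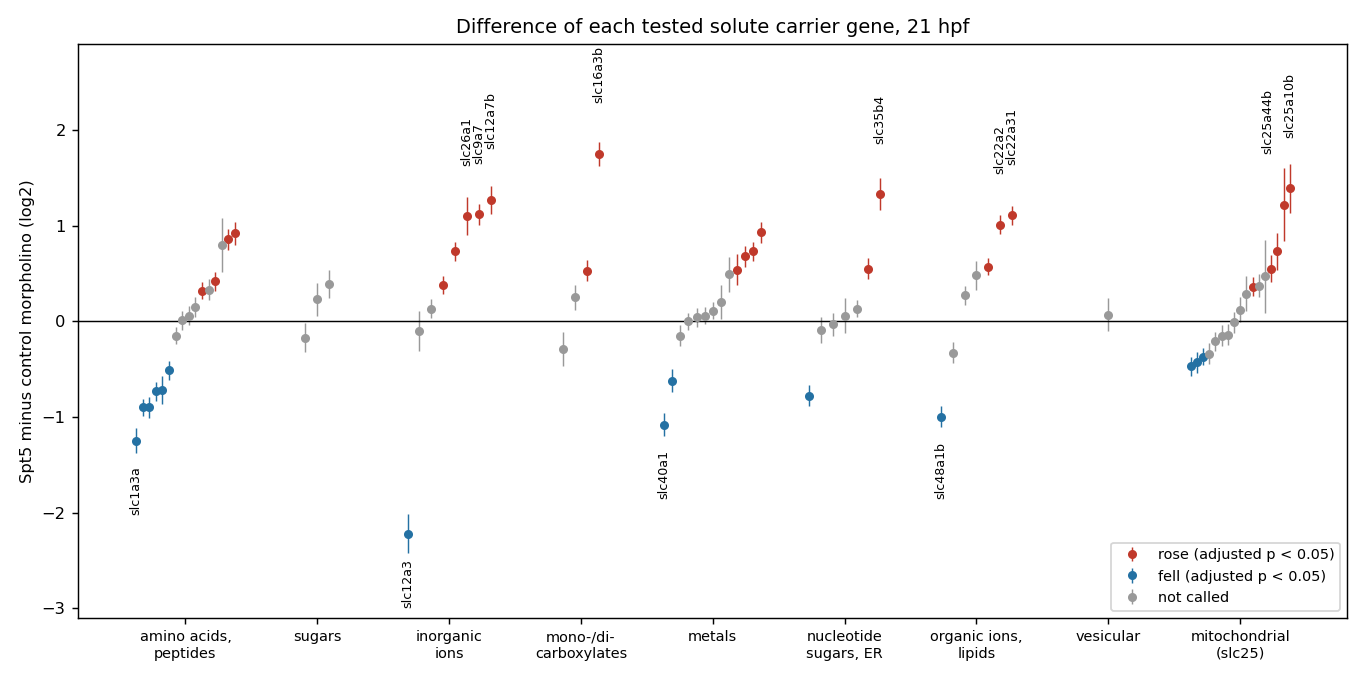
Difference of each tested slc gene between Spt5 and control morpholino embryos at 21 hpf (vertical axis, log2, bars show 1 SE, n = 2 and 2), ordered within each transporter group. Of 76 genes, the 25 in red rose and the 14 in blue fell at a limma adjusted p of 0.05; slc16a3b stands highest at 1.75, and slc12a3, drawn lowest, is dim on both Spt5 morpholino arrays, so that its size has only a lower limit.

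Among carriers of monocarboxylates and dicarboxylates, slc16a3b showed the largest fitted rise of the 76 tested slc genes. It belongs to the proton-linked monocarboxylate transporters and in mammals its counterpart exports lactate from glycolytic cells. Its log2 intensity was 6.78 and 6.63 with the Spt5 morpholino, against 4.83 and 5.07 with the control, and the groups did not overlap. The difference was 1.75 ± 0.13 (log2, SE; limma adjusted p = 0.0012). Against untreated embryos of the same age it was larger, at 2.94 ± 0.15 (adjusted p = 9.2e-04), and the control morpholino embryos themselves stood above the untreated ones by 1.21 ± 0.15 (adjusted p = 0.0378). The control call was lost with any 1 array left out (adjusted p 0.0788 to 0.0908), as deposited (0.321), without a filter (0.254) and after spike-in centring (0.0574). The deposited intensities show this order directly, with 88.6 and 104 in the Spt5 morpholino embryos, 26.9 and 43 in the control morpholino embryos and 15.6 in the untreated embryos. The related slc16a9b had 6.30 and 6.51 with the Spt5 morpholino, against 5.85 and 5.90 with the control, a smaller rise (0.53 ± 0.11, adjusted p = 0.0158). The lactate and pyruvate carrier slc16a1b was at 0.25 and slc16a12b at -0.29, and neither passed the test. Of the 8 genes of this group 4 were tested, 2 rose and no gene fell, also at an unadjusted p of 0.05. Named genes rose in 22.6% and fell in 24.6% at the adjusted threshold. The group counts were 1 and 0 as deposited, and 1 and 1 after spike-in centring. The glycoprotein gene bsg, whose product brings monocarboxylate carriers to the cell surface in mammals, rose by 0.50 ± 0.09 (adjusted p = 0.0116). Values of bsg are given after quantile normalization alone, and its part in the rise of slc16a3b was not tested. The rise of slc16a3b was called with any 1 of the 4 arrays left out, whereas that of slc16a9b was lost under both other scalings and on omission of Spt5 morpholino replicate 2 or control morpholino replicate 1 (adjusted p up to 0.0667).

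Carriers of inorganic ions rose in 5 of 8 tested genes and fell in 1, against 22.6% and 24.6% of named genes. The counts were 3 and 0 of 7 as deposited, and 4 and 1 of 8 after spike-in centring. The potassium-chloride cotransporter gene slc12a7b had 6.29 and 6.19 with the Spt5 morpholino, against 5.16 and 4.78 with the control (1.27 ± 0.15, adjusted p = 0.0031). The sodium-proton exchanger gene slc9a7, known from the trans-Golgi network in mammals, had 5.78 and 5.80, against 4.57 and 4.77 with the control morpholino. Both control values lay below log2 5, so slc9a7 was at least 1.73-fold higher (limma adjusted p = 0.0020) and passed the filter through the Spt5 morpholino arrays alone. For both genes each Spt5 morpholino array lay above each control array. The sulfate carrier gene slc26a1 rose by 1.10 ± 0.20 (adjusted p = 0.0106), the chloride-bicarbonate exchanger gene slc4a2a by 0.73 ± 0.10 (adjusted p = 0.0042) and the phosphate carrier gene slc20a1b by 0.38 ± 0.09 (adjusted p = 0.0247). slc4a2a had a second tested probe set, which also rose, by 0.58. The motor protein gene slc26a5 (0.13) and the phosphate cotransporter gene slc34a2b (-0.10) were not called. As deposited slc4a2a was not called. slc20a1b lost its call under both other scalings and without any 1 of the 4 arrays (adjusted p 0.0611 to 0.0992), and slc9a7 was no longer tested without either Spt5 morpholino array.

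The fall was that of slc12a3, the thiazide-sensitive sodium-chloride cotransporter of the distal kidney tubule. Its log2 intensity was 2.67 and 3.18 with the Spt5 morpholino, against 5.01 and 5.28 with the control, with deposited intensities of 5 and 9.7 against 30.7 and 49.8, and 33.9 in untreated embryos. The Spt5 morpholino arrays were both dim, so the fall is given as at least 1.11-fold (limma adjusted p = 0.0017), and the control values lay just above log2 5. Thus slc12a3 passed the filter through the control morpholino arrays alone, and its p-value rests in part on values below log2 5. The control morpholino and untreated embryos differed by 0.31 (adjusted p = 0.494). A second slc12a3 probe set, at 3.06 and 3.06 against 4.25 and 4.18 with the control morpholino, was too dim to be tested. Beside slc12a3, 2 of 3 tested pronephros markers fell. These were cdh17, at least 3.96-fold lower, and the ATPase subunit gene atp1a1a.4 (-2.07 ± 0.10), while pax2a rose by 0.53. The summed intensity of the 4 markers was 152 and 150 with the Spt5 morpholino, against 353 and 328 with the control. In whole embryos, fewer cells of a type and less RNA per cell cannot be told apart. The part of these markers in the fall of slc12a3 was not tested. Without Spt5 morpholino replicate 1 it remained called (adjusted p = 0.0095), and in the other 3 omissions it fell out of the test.

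Among carriers of amino acids, peptides and transmitters, 4 of 16 tested genes rose and 6 fell, or 4 and 5 of 15 without slc7a6os. Named genes rose in 22.6% and fell in 24.6%. Of the 16 genes, 0 rose and 5 fell as deposited, and 2 rose and 7 fell after spike-in centring. The falls included each tested member of slc1, but slc1a2b passed the filter through the control morpholino arrays alone. That family takes up glutamate, aspartate and neutral amino acids with sodium. slc1a3a, a glutamate carrier of glia, had 6.66 and 6.95 with the Spt5 morpholino, against 8.07 and 8.05 with the control, a fall of 1.25 ± 0.13 (adjusted p = 0.0022). slc1a4, a carrier of alanine, serine and cysteine in mammals, had 5.53 and 5.54, against 6.48 and 6.38 with the control morpholino (-0.90 ± 0.09, adjusted p = 0.0023). For both genes every Spt5 morpholino value lay below every control value, and the difference between control morpholino and untreated embryos of the same age did not pass the test (-0.23 for slc1a3a and 0.48 for slc1a4). slc1a2b, the other glutamate carrier, was at 4.90 and 4.74 with the Spt5 morpholino, against 5.32 and 5.35 with the control. It was at least 1.26-fold lower (adjusted p = 0.0133), but it was not called as deposited or without Spt5 morpholino replicate 2 (adjusted p = 0.0613) and fell out of the test without either control array. The GABA carrier gene slc6a11a, also a gene of nervous tissue, was at -0.15 and not called. Among the 3 tested neuron markers snap25a fell at least 1.81-fold and gap43 by 0.73, while elavl3 was at 0.07. The summed neuron markers were 397 and 374 with the Spt5 morpholino, against 452 and 438 with the control. Their part in the falls of slc1 genes was not tested.

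The slc38 family of sodium-coupled glutamine and neutral amino acid carriers went both ways. slc38a7, a glutamine carrier of lysosomes in mammals, had 7.83 and 7.93 with the Spt5 morpholino, against 6.92 and 7.12 with the control (0.86 ± 0.11, adjusted p = 0.0041), and its second probe set rose by 0.64. slc38a8b had 5.03 and 4.83 with the Spt5 morpholino, against 5.82 and 5.83 with the control (-0.90 ± 0.11, adjusted p = 0.0033). slc38a4 had 5.50 and 5.86, against 6.46 and 6.33 with the control morpholino (-0.72 ± 0.15, adjusted p = 0.0150). In none of the 3 genes did the groups overlap. slc38a5b was level between the morpholinos (0.01, adjusted p = 0.919), but both stood above the untreated embryos, the Spt5 morpholino by 0.87 ± 0.12 (adjusted p = 0.0053) and the control morpholino by 0.86 ± 0.12 (adjusted p = 0.0395). The control call was lost with any 1 array left out (adjusted p 0.0811 to 0.113), as deposited (0.855) and without a filter (0.256). Its deposited intensities were 287 and 394 in Spt5 morpholino embryos, 340 and 434 in control morpholino embryos and 214 in untreated embryos. As deposited slc38a7 was not called. The call of slc38a4 was lost on omission of control morpholino replicate 1 (adjusted p = 0.0501), and slc38a8b was not tested without control morpholino replicate 2.

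Some amino acid carriers work as pairs of a heavy and a light chain. slc7a7, the light chain of a system that exchanges basic for neutral amino acids, had 5.41 and 5.64 with the Spt5 morpholino, against 4.58 and 4.63 with the control. It was at least 1.44-fold higher (limma adjusted p = 0.0036) and passed the filter through the Spt5 morpholino arrays alone. slc7a8a, a light chain for large neutral amino acids, rose by 0.42 ± 0.10 (adjusted p = 0.0240), although its second probe set, at 0.22, was not called. The heavy chain gene slc3a2a rose by 0.32 ± 0.09 (adjusted p = 0.0420), with 8.64 and 8.62 against 8.26 and 8.36 with the control morpholino. The slc7a8a and slc3a2a calls were weak, with adjusted p up to 0.1 and from 0.0725 to 0.170 when 1 array was left out. slc3a2a was at 0.12 as deposited (adjusted p = 0.861) and 0.00 after spike-in centring (adjusted p = 0.992), slc7a8a was called under neither of these scalings, and slc7a7 was not called as deposited, nor tested without either Spt5 morpholino array. The slc43 carriers of large neutral amino acids, slc43a1a, slc43a2a and slc43a2b, were not called, at 0.15, 0.33 and 0.06, and 1 of the 3 was higher at an unadjusted p of 0.05. Of these duplicates, slc43a2a had 8.04 and 8.09 with the Spt5 morpholino, against 7.83 and 7.65 with the control, and slc43a2b had 7.99 and 7.97, against 7.83 and 8.0, with overlap in slc43a2b alone. The peptide and histidine carrier slc15a4 was at 0.80 ± 0.28 and missed the threshold (adjusted p = 0.0673). slc7a6os, which is not a transporter, fell by 0.73 ± 0.10 (adjusted p = 0.0043).

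Of the metal carriers 13 of 14 genes were tested, and 4 rose while 2 fell, against 22.6% and 24.6% of named genes. The counts were 0 and 2 as deposited, and 2 and 3 after spike-in centring. slc40a1 encodes ferroportin, the iron exporter that zebrafish embryos need to bring yolk iron to their blood. It had 5.49 and 5.43 with the Spt5 morpholino, against 6.42 and 6.67 with the control, a fall of 1.08 ± 0.12 (adjusted p = 0.0026), and was also lower than in untreated embryos, by 1.43 ± 0.15 (adjusted p = 0.0027). The zinc importer gene slc39a3 fell by 0.62 ± 0.12 against the control morpholino (adjusted p = 0.0133). Against untreated embryos it was at 0.29 and not called (adjusted p = 0.174), and the control morpholino embryos were at 0.91 against them (adjusted p = 0.0546). The slc39a3 call was lost on omission of Spt5 morpholino replicate 1 (adjusted p = 0.0649).

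The rises were in copper and zinc carriers. slc31a1, the copper importer, had 9.57 and 9.57 with the Spt5 morpholino, against 8.90 and 8.78 with the control (0.73 ± 0.10, adjusted p = 0.0041), and its second probe set rose by 0.97. slc30a6, part of a complex that loads zinc into the secretory pathway, had 6.80 and 6.64, against 5.73 and 5.85 with the control morpholino (0.93 ± 0.11, adjusted p = 0.0031). In both genes the groups were well apart. The zinc carrier genes slc39a13 and slc39a9 rose by 0.68 ± 0.11 and 0.54 ± 0.16 (adjusted p = 0.0081 and 0.0408), and the second probe set of slc39a9, at 0.29, was not called. The 7 metal carriers that were not called ran from -0.15 for slc30a9 to 0.49 for slc39a5 and include the iron importer slc11a2 at 0.04 and slc39a7, of the endoplasmic reticulum, at 0.00. The slc39a9 and slc39a13 calls were lost under both other scalings, and those of slc30a6 and slc31a1 as deposited. The slc39a9 call was also lost on omission of Spt5 morpholino replicate 1 or control morpholino replicate 2 (adjusted p up to 0.158). Of the markers of erythroid cells, which use iron for heme, 3 of 4 tested fell, while tal1, at 0.28, was not called. The erythroid markers summed to 454 and 426 in Spt5 morpholino embryos and 2908 and 2783 in control morpholino embryos. Of the 5 tested markers of yolk syncytial layer and liver, 2 rose and 1 fell. Their sums were 11463 and 11678 with the Spt5 morpholino, against 10433 and 10291 with the control. The part of either list in the fall of slc40a1 was not tested.

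Among nucleotide sugar carriers and carriers of the endoplasmic reticulum, 2 of 7 tested genes rose and 1 fell. Named genes rose in 22.6% and fell in 24.6%. The group counts were 1 and 1 as deposited, and 1 and 2 after spike-in centring. slc35b4, a Golgi carrier of nucleotide sugars, had 7.32 and 7.69 with the Spt5 morpholino, against 6.04 and 6.31 with the control (1.33 ± 0.17, adjusted p = 0.0037). Against untreated embryos its rise was 0.71 ± 0.21 (adjusted p = 0.0450), the control morpholino embryos being lower than the untreated ones by 0.61 without passing the test (adjusted p = 0.174). slc35f6 rose by 0.55 ± 0.11 (adjusted p = 0.0130), on both of its probe sets, though the call was lost under both other scalings and on omission of Spt5 morpholino replicate 2 or control morpholino replicate 1 (adjusted p up to 0.0624). slc35h1 fell by 0.78 ± 0.11 (adjusted p = 0.0054), with 5.26 and 5.05 against 5.98 and 5.89 with the control morpholino. The glucose-6-phosphate carrier slc37a4a (0.13) was not called. Its second probe set, at 3.64 and 4.10 with the Spt5 morpholino against 4.93 and 4.89 with the control, was too dim to be tested.

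Carriers of organic ions, vitamins and lipids rose in 3 of 7 tested genes and fell in 1, against 22.6% and 24.6% of named genes. The counts were 1 and 1 as deposited, and 2 and 2 after spike-in centring. Both tested slc22 genes, members of a family of organic cation and anion carriers, rose, but slc22a2 passed the filter through the Spt5 morpholino arrays alone. slc22a31 had 8.47 and 8.51 with the Spt5 morpholino, against 7.46 and 7.30 with the control (1.11 ± 0.10, adjusted p = 0.0018). slc22a2, an organic cation carrier, had 5.38 and 5.31, against 4.39 and 4.28 with the control morpholino, at least 1.27-fold higher (adjusted p = 0.0019). Its second probe set, at 4.01 and 4.40 against 3.47 and 4.01 with the control, was too dim to be tested. slc22a2 was not called as deposited and not tested without either Spt5 morpholino array, while slc22a31 was called in each of the 4 omissions. slc27a2a, which takes up and activates long-chain fatty acids, rose by 0.57 ± 0.09 (adjusted p = 0.0065) over the control morpholino but was at 0.14 against untreated embryos (adjusted p = 0.362). Its rise over the control was lost under both other scalings (adjusted p = 0.476 and 0.108). slc48a1b, a heme carrier of the lysosomal membrane, had 5.62 and 5.42 with the Spt5 morpholino, against 6.54 and 6.51 with the control (-1.0 ± 0.11, adjusted p = 0.0025). The bile acid family member slc10a7 (0.27), slc49a4 (0.48) and slc27a1a (-0.33) were not called.

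Of the sugar group (slc2 and slc5, with the vitamin carrier slc5a6b) 3 of 11 genes were tested, and none was called. After spike-in centring 1 of the 3 was lower. The glucose carrier genes slc2a10, slc2a2 and slc2a3a were at 0.39, 0.23 and -0.17, and 1 of them was higher at an unadjusted p of 0.05. slc2a3a nevertheless was lower in Spt5 morpholino embryos than in untreated ones, by 1.25 ± 0.19 (adjusted p = 0.0069), and the control morpholino embryos were at -1.08 (adjusted p = 0.0588). Its deposited intensities of 38.5 and 39.2 in Spt5 morpholino embryos and 48.7 and 58.1 in control morpholino embryos all lay below the 114 of untreated embryos. slc2a15b was untested, at 2.93 and 1.92 with the Spt5 morpholino, against 4.27 and 4.66 with the control. Of the vesicular carriers, which load transmitters, 1 of 4 genes was tested, the lysosomal sialic acid carrier slc17a5, at 0.07 and not called.

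**Figure D2:**
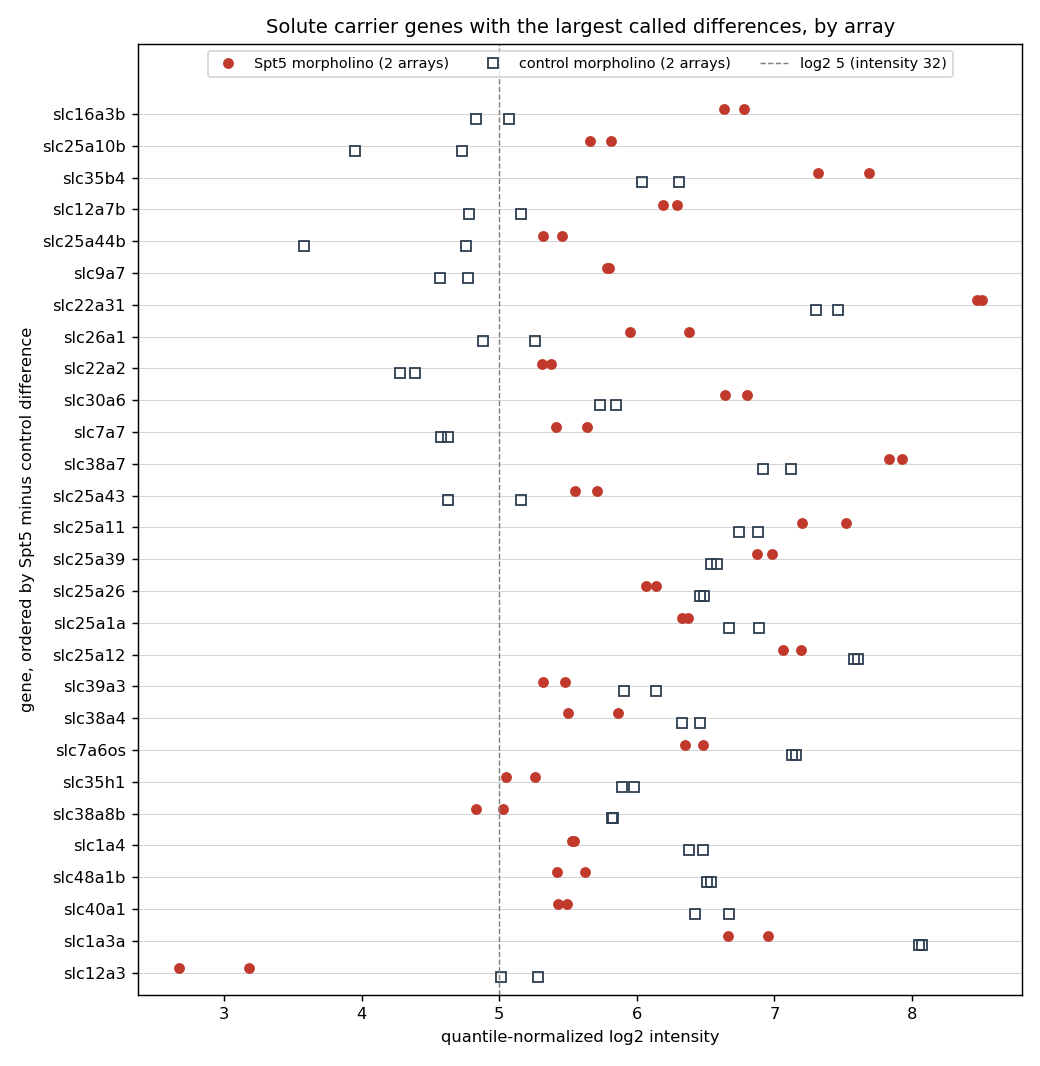
Quantile-normalized log2 intensity of 28 called slc genes on each of the 4 morpholino arrays (filled circles for Spt5 morpholino, open squares for control morpholino, dashed line at log2 of 5). The genes are those with the largest fitted rises and falls outside slc25, with all called slc25 genes whatever the size of their difference. In each of these genes both Spt5 morpholino arrays lie on the same side of both control arrays, and both slc12a3 values with the Spt5 morpholino, 2.67 and 3.18, lie left of the line.

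Mitochondrial carriers had called differences in either direction, with 5 of 17 tested genes risen and 3 fallen, against 22.6% and 24.6% of named genes. The share called was 47.1%, close to the 47.2% of named genes, with 52.5% of the 59 other slc genes. Of the 5 risen, slc25a10b and slc25a44b passed the filter through the Spt5 morpholino arrays alone. The balance of rises and falls turned only after spike-in centring, to 1 higher and 7 lower, with 2 higher and 0 lower as deposited (at limma's adjusted p). Mitochondrial carriers move metabolites between cytosol and matrix. The dicarboxylate carrier gene slc25a10b had 5.66 and 5.81 with the Spt5 morpholino, against 3.95 and 4.73 with the control. It was at least 1.66-fold higher (adjusted p = 0.0116), but against untreated embryos it was at 0.41 and not called (adjusted p = 0.351). slc25a44b, a carrier of branched-chain amino acids in mammals, had 5.46 and 5.32, against 4.76 and 3.58 with the control morpholino, at least 1.31-fold higher (adjusted p = 0.0481). slc25a43 rose by 0.73 ± 0.19, the oxoglutarate-malate carrier slc25a11 by 0.55 ± 0.14 and slc25a39, needed in mammals for mitochondrial glutathione uptake, by 0.36 ± 0.10 (adjusted p = 0.0303, 0.0291 and 0.0304). slc25a39 rose on both of its probe sets, slc25a11 on 1 of 2.

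The 3 mitochondrial carriers that fell did so by less than 1 on the log2 scale. The aspartate-glutamate carrier gene slc25a12 had 7.06 and 7.19 with the Spt5 morpholino, against 7.58 and 7.61 with the control (-0.47 ± 0.10, adjusted p = 0.0154). The citrate carrier slc25a1a fell by 0.43 ± 0.11 (adjusted p = 0.0298) and the S-adenosylmethionine carrier slc25a26 by 0.37 ± 0.09 (adjusted p = 0.0255). The phosphate carrier slc25a3b, at a mean of 10.64 in Spt5 morpholino embryos, was at -0.14 ± 0.11 and was not called. Of the slc25 rises, slc25a10b was called under both other scalings and slc25a44b as deposited alone, and the 3 falls were called after spike-in centring but not as deposited. No slc25 call was kept in each of the 4 omissions of 1 array: slc25a39 and slc25a26 were called in none of them, slc25a11, slc25a12, slc25a1a and slc25a43 in 1, and slc25a10b and slc25a44b, dim in the control embryos, in 2. Against the untreated embryos 1 of 17 mitochondrial carriers rose, slc25a16, by 1.06 ± 0.22 (adjusted p = 0.0175), and 1 fell, slc25a1a, by 0.54 ± 0.14 (adjusted p = 0.0316). Among named genes 21.8% rose and 21.9% fell in that comparison.

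Of the 39 called slc genes, 17 were called in each of the 4 omissions of 1 array, 11 higher and 6 lower. The higher ones were slc12a7b, slc16a3b, slc22a31, slc26a1, slc27a2a, slc30a6, slc31a1, slc35b4, slc38a7, slc39a13 and slc4a2a. The lower ones were slc1a3a, slc1a4, slc35h1, slc40a1, slc48a1b and slc7a6os. No gene turned to a call in the opposite direction. Under the other scalings, slc27a2a and slc39a13 were called neither as deposited nor after spike-in centring, and slc30a6, slc31a1, slc38a7 and slc4a2a were not called as deposited. This leaves 11 genes called in each omission and under each scaling, of which slc12a7b, slc16a3b, slc22a31, slc26a1 and slc35b4 were higher, and the 6 lower ones named above were lower. Without a filter, only slc16a3b, slc22a31, slc1a3a and slc1a4 of these 11 kept their call, and slc7a6os is not a transporter. With 1 array left out, fewer slc genes were called in each direction. In each omission the filter removed some of the called genes from the test, but more of them were tested and not called.

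**Figure D3:**
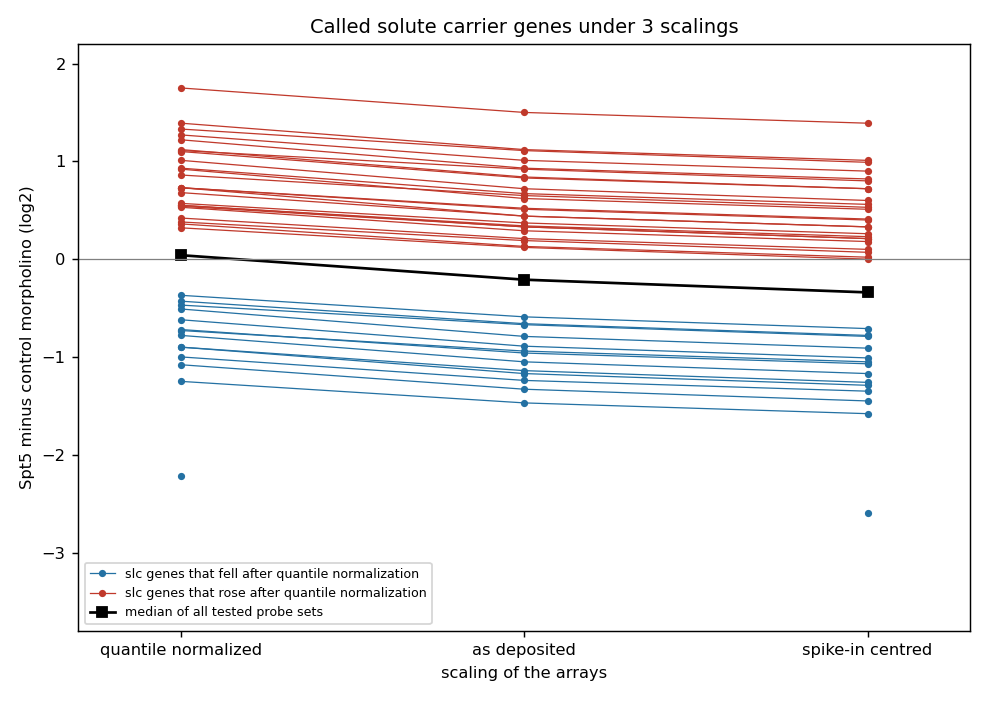
Difference between Spt5 and control morpholino embryos (vertical axis, log2) of the 39 called slc genes under 3 scalings of the arrays, with the median of all tested probe sets in black. The lines run nearly parallel to the median, which moves to -0.34, and no gene crosses 0; slc12a3 has no value as deposited.

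Spt5 morpholino embryos were also set against untreated embryos of the same age, with the lone untreated array assumed to vary like the morpholino groups. Of 77 tested slc genes 20 rose and 12 fell, against 21.8% and 21.9% of 5823 named genes (43.7% called). Outside slc25 these were 19 and 11 of 60. The Spt5 morpholino arrays enter both comparisons, so the values are given side by side and no agreement is drawn from them. For slc1a3a the difference was -1.48 against untreated and -1.25 against control morpholino embryos. It was 1.56 and 1.11 for slc22a31, 1.31 and 0.73 for slc31a1, and 1.34 and 1.27 for slc12a7b. In other called genes it was smaller against untreated embryos. It was -0.41 and -0.90 for slc1a4, -0.54 and -0.90 for slc38a8b, 0.46 and 0.93 for slc30a6, and 0.71 and 1.12 for slc9a7. Control morpholino embryos differed from untreated embryos in 2 of 77 slc genes, slc16a3b and slc38a5b, both higher, against 2.64% of named genes in either direction and 1.72% upwards. At an unadjusted p of 0.05 there were 15 higher and 8 lower slc genes in that comparison. The share of all named genes at that threshold is not given, so these counts cannot be set against the adjusted shares above. Neither of the slc calls was kept with any 1 array left out.

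The second comparison set untreated embryos at 21 hpf against untreated embryos at 5 hpf, the study's measure of how strongly genes are activated between these ages. It has 1 array at each age, so differences have no replicate check and no test was made. By log2 difference, 11 of 17 measured genes of the amino acid group were at least 2-fold higher at 21 hpf. They include slc7a6os, which is not a transporter. The carrier gene slc16a3b was far lower at that age. Of the 82 slc genes at log2 5 or more on at least 1 of the 2 arrays, 23 were at least 2-fold higher and 33 at least 2-fold lower at 21 hpf, against 28.5% and 33.3% of 6270 named genes. All these counts use the log2 difference. For some genes dim at 1 age, such as slc16a9b and slc9a8, the lower limit of the fold is under 2. With the arrays as deposited the counts were 43 and 19 of 91 slc genes, and after spike-in centring 42 and 21 of 90. Over all probe sets the balance turned as well. They numbered 2806 higher and 3053 lower of 9294 after quantile normalization, 4292 and 1705 of 9619 as deposited, and 3962 and 1919 of 9547 after spike-in centring. The median of all probe sets was -0.16 after quantile normalization, 0.70 as deposited and 0.52 after spike-in centring.

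By log2 difference, 11 of 17 genes of the amino acid group were at least 2-fold higher and 2 lower at 21 hpf. The counts were 12 and 2 under each of the other 2 scalings. Of the 11, slc1a4 and slc38a8b were dim at 5 hpf, and their lower limits are under 2. A further member of the 11, slc7a6os (1.70), is not a transporter. The GABA carrier slc6a11a had 6.95 at 21 hpf and -0.59 at 5 hpf, where it was dim, at least 3.86-fold higher. slc1a3a had 8.18 and 3.28, at least 9.05-fold higher, and the heavy chain slc3a2a had 8.02 and 3.75, at least 8.12-fold higher. The neutral amino acid carriers slc43a2a (7.67 and 3.43), slc43a2b (7.73 and 3.99) and slc1a4 (5.83 and 1.28) had the same order of ages, at least 6.38-fold, 6.64-fold and 1.78-fold higher. The 2 lower genes were slc38a6, with 3.56 at 21 hpf and 7.22 at 5 hpf (at least 4.67-fold lower), and the cationic amino acid carrier slc7a1b (at least 2.87-fold lower).

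Outside the amino acid group, the fatty acid carrier slc27a2a had 8.33 at 21 hpf and -0.21 at 5 hpf, at least 10.1-fold higher. The glucose carrier slc2a3a had 6.62 and 1.64 (at least 3.08-fold higher), and the zinc carrier slc39a5 had 6.64 and 1.91 (at least 3.12-fold higher). The iron exporter slc40a1 had 6.86 and 3.93 (at least 3.64-fold higher). The 5 markers of yolk syncytial layer and liver summed to 7620 at 21 hpf and 394 at 5 hpf, and their part in these differences was not tested.

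In the other direction, slc16a3b had 3.17 at 21 hpf and 10.97 at 5 hpf, at least 62.7-fold lower. Its deposited intensities were 15.6 at 21 hpf and 1030 at 5 hpf. The folate carrier slc46a1 had 3.88 at 21 hpf and 7.50 at 5 hpf (at least 5.68-fold lower), and the vesicular nucleotide carrier slc17a9b had 3.53 and 7.10 (at least 4.30-fold lower). slc27a6, of the fatty acid carriers, had 2.99 and 6.71 (at least 3.26-fold lower), the calcium exchanger slc24a4a 3.93 and 6.71 (at least 3.28-fold lower) and the sodium-dependent vitamin carrier slc5a6b 2.18 and 5.11 (at least 1.08-fold lower). slc35e1 was bright at both ages, with 5.23 and 8.06, a difference of -2.83. These genes kept the sign under both other scalings. The inorganic ion group did not: 2 of 10 genes were higher and 6 lower after quantile normalization, but 7 of 13 and 3 of 13 as deposited and 6 and 3 of 12 after spike-in centring.

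By log2 difference, 1 of 17 mitochondrial carriers was at least 2-fold higher and 9 were lower at 21 hpf. The higher one, slc25a14, was dim at 5 hpf, and slc25a38b and slc25a44a among the lower ones were dim at 21 hpf. For these genes the lower limit of the fold is under 2. Like that of all probe sets, the balance of the family turned, with 7 higher and 5 lower of 19 under both other scalings. The direction for the family is therefore not settled. The lower single genes kept their sign. The ATP-magnesium and phosphate carrier slc25a25a had 5.80 at 21 hpf and 9.06 at 5 hpf, a difference of -3.26. The pyrimidine nucleotide carrier slc25a33 had 7.28 and 9.61 (-2.33). Mitoferrin, slc25a37, which imports iron in erythroid cells, had 3.28 and 6.58 (at least 2.98-fold lower), and slc25a44b had 4.12 and 6.68 (at least 3.20-fold lower). The erythroid markers ran the other way, summing to 2458 at 21 hpf and 34 at 5 hpf. slc25a14 was higher at 21 hpf, with 5.76 and 4.38 (at least 1.70-fold), and the differences of slc25a20, which carries acylcarnitines, slc25a3b and slc25a39 were 0.76, 0.53 and 0.51.

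**Figure D4:**
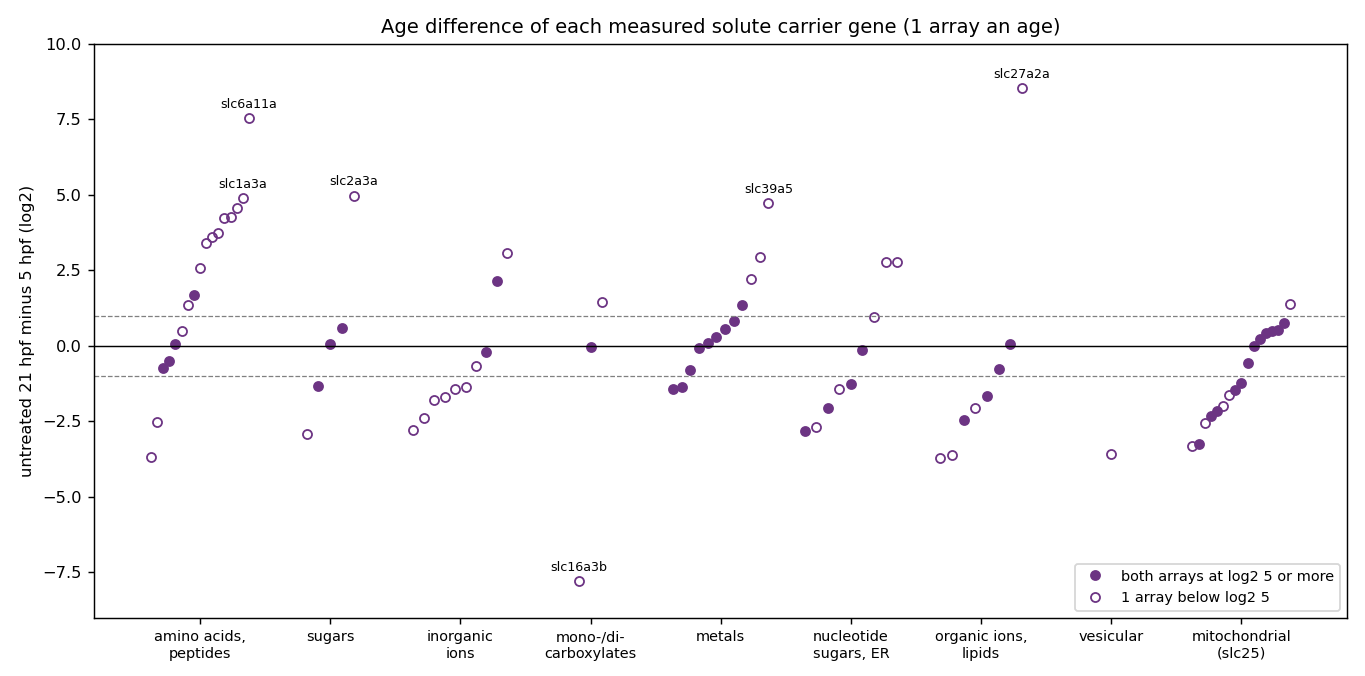
Difference of each of 82 slc genes between untreated embryos at 21 and 5 hpf (vertical axis, log2, 1 array an age), ordered within transporter groups; open points have 1 array below log2 5 and dashed lines mark 2-fold. In the amino acid group 11 of 17 points lie above the upper line, and slc16a3b, drawn lowest, was dim at 21 hpf and at least 62.7-fold lower.

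The 2 comparisons share no array, so a gene's age difference and its morpholino difference can be set beside each other. Of the 21 risen slc genes with an age value, 8 were at least 2-fold higher and 5 lower at 21 hpf by log2 difference. Of the 12 fallen, 6 were higher and 4 lower, and of the 32 not called, 9 were higher and 8 lower. Among all named genes the shares were 30.6% higher and 28.8% lower for the risen, 39.3% and 18.3% for the fallen, and 30.3% and 24.9% for those not called. Against those shares the slc counts are small and no difference was tested. slc1a3a, slc1a4 and slc40a1 were higher at 21 hpf than at 5 hpf and lower with the Spt5 morpholino than with the control, and slc16a3b, slc9a7, slc25a10b and slc25a44b were lower at 21 hpf and higher with the Spt5 morpholino. slc27a2a and slc35b4 were higher at 21 hpf and also rose with the Spt5 morpholino, while slc48a1b and slc35h1 were lower at 21 hpf and fell.

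**Figure D5:**
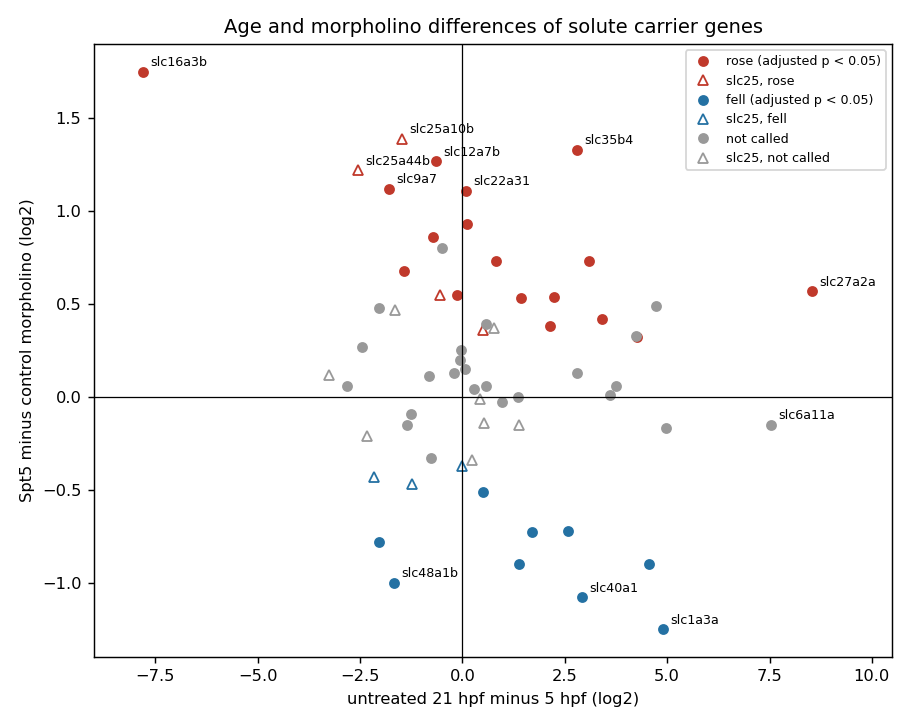
Age difference in untreated embryos (horizontal axis, log2, 21 minus 5 hpf) and morpholino difference at 21 hpf (vertical axis, log2, Spt5 minus control) of 65 slc genes; triangles are slc25 genes. Red and blue points, risen and fallen, are found on both sides of the vertical line, with slc16a3b at the upper left and slc1a3a at the lower right; both were dim at 1 age, so their horizontal distance is no exact size.

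Transport genes with other names are set beside the 22.6% of named genes that rose and the 24.6% that fell, after quantile normalization alone. Of the solute carrier proteins whose gene symbols do not begin with slc and a family number, 3 of 10 tested rose and 3 fell. mfsd1l, of the major facilitator superfamily, had 9.99 and 10.02 with the Spt5 morpholino, against 8.34 and 8.64 with the control (1.51 ± 0.13, adjusted p = 0.0015). The mitochondrial sideroflexin gene sfxn2 fell by 0.89 ± 0.13 (adjusted p = 0.0056), and the uncoupling protein gene ucp1, a mitochondrial carrier by structure, was at least 1.18-fold lower (adjusted p = 0.0030). Of the ATP-binding cassette genes 4 of 8 rose and 2 fell. Without abce1, abcf1 and abcf2a, which belong to the superfamily but are not transporters, 4 of 5 rose and 1 fell, with abcc4 at least 1.51-fold higher. Of the calcium and proton pumps 6 of 16 rose and 3 fell, among the fallen atp2a1, the calcium pump of the muscle sarcoplasmic reticulum (-1.54 ± 0.09, adjusted p = 9.5e-04).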

How the data were processed

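RNA of whole zebrafish embryos was hybridised to Affymetrix arrays, and groups were taken from the sample titles. Per the submitters' processing notes the authors used GCRMA; the sources used here give neither its version nor its settings. The deposited values are linear intensities, 1 a probe set, with 1 decimal, and the columns do not share a distribution. For each comparison the log2 values of its arrays were quantile normalized: 4 morpholino arrays, 5 arrays at 21 hpf, or 2 untreated arrays. Of the probe sets, 115 Affymetrix controls were dropped. The test was run on probe sets that reached a normalized log2 of 5 on 2 or more arrays of the fit, and ages were compared where 1 array or more reached it. The test was limma 3.58.1 (lmFit, eBayes; R 4.3.3), two-sided, with adjustment by Benjamini and Hochberg over all tested probe sets and a threshold of 0.05. Where one group lay wholly below log2 5, its values were raised to 5 and the fold is a lower limit, printed with the adjusted p from the unraised values.

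Platform symbols were updated by Entrez identifier, using RefSeq's gene table for assembly GRCz12tu, which gave all 154 slc probe sets a current symbol. A further 5 probe sets with several symbols, one of them an slc gene, were not used. The probe set with the highest mean log2 over the 6 arrays stood for its gene, and groups follow family numbers. The genes named in the text are the called slc genes with the largest rises and falls outside slc25, in slc25 and in each group. Those with the largest age differences, the brightest gene of each group, duplicate pairs, and listed markers and related genes are also named. The other slc genes that are named were picked after their values were seen. The slc genes, the groups, the marker and related gene lists, the tests and the alternatives were chosen with earlier results of these data known. The limma step was tested on simulated data. The median SD within the morpholino groups was 0.0896 (log2). Precision is limited by the number of arrays. Alternatives were the values as deposited, centring on bacterial spike-in probe sets, other filters, each array left out, the replicate number as a block, the fit on 5 arrays and the dimmest tested probe set of a gene. No sequence other than the morpholino was available here, and no genome build is used.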

Additional observations from a re-analysis of the deposited data

How the results depend on the processing

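Counts of calls moved with the processing more than directions did. Over 33 called slc genes named by rule, calls were kept by 17 of 32 as deposited and 25 of 33 after spike-in centring. They were kept by 7 of 33 without a filter and 22 of 22 with a filter at log2 6. None of these genes changed sign in the alternatives run. The filters leave a difference as it is and the scalings move all differences nearly together, so under these the kept signs are no check of the calls.

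Between the morpholinos, all called probe sets numbered 4001, against 1655 as deposited, 874 without a filter and 2352 to 2788 with 1 array left out. slc genes higher with the Spt5 morpholino numbered 25, against 8 as deposited, 13 after spike-in centring, 4 without a filter and 13 to 20 with 1 array left out. Those lower numbered 14, against 9, 24, 4 and 8 to 10. Under the replicate block, 4439 probe sets were called, with 29 slc genes higher and 16 lower. The replicate numbers share only a number in the labels, and the deviations of same-numbered arrays correlated at 0.254 over probe sets, with 2 pairs. With the dimmest tested probe set of a gene, 22 slc genes were higher and 14 lower.

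Against untreated embryos, all calls with the Spt5 morpholino numbered 3823, against 1525 as deposited, 649 without a filter and 2515 to 3669 with 1 array left out. slc genes higher numbered 20, against 4 as deposited, 12 after spike-in centring, 4 without a filter and 11 to 20 with 1 array left out. Those lower numbered 12, against 7 as deposited, 21 after spike-in centring, 1 without a filter, 7 with the filter at log2 6, and 8 to 10 with 1 array left out. For the control morpholino, all calls numbered 250, against 58 as deposited, 148 after spike-in centring, 0 without a filter (limma), 490 with the filter at log2 6 and 2 to 10 with 1 array left out. slc genes higher numbered 2, against 0 as deposited, 1 after spike-in centring, 0 without a filter, 4 with the filter at log2 6, and 0 with any 1 array left out, and 1 slc gene was lower as deposited, against 0.

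Between the ages, slc genes at least 2-fold higher at 21 hpf by log2 difference numbered 23, against 43 as deposited, 42 after spike-in centring and 41 without a filter. Those lower numbered 33, against 19 as deposited and 21 after spike-in centring. Counts with 1 array left out test fewer genes and rest on fewer samples. The cause of the other shifts was not tested. With 2 arrays against 2, and 1 against 1 for age, the number of arrays limits what can be told, and for genes below log2 5 in a group the size of the difference has only a lower limit.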
